A study of Mus musculus with 8 samples.

Results

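*Adgrg1*, *Adgrg3* and *Adgre5* encode adhesion G protein-coupled receptors (GPCRs), and their mRNA was followed in regulatory T cells (Tregs) and conventional CD4+ T cells (Tconvs) of mice with and without constitutive CD27 stimulation. These genes were selected on values of the same 8 libraries, since *Adgrg1* was far higher in the CD70Tg Tconvs and behaved differently in Tregs, so that their responses to CD70Tg are given here as a description with no test. They are 3 of 4 genes that the selection took from the 30 adhesion GPCR genes in a table of 52636 rows. RNA had been sequenced from spleen cells sorted as Tregs (CD4+ Foxp3+, carrying the GFP of the Foxp3eGFP reporter) or Tconvs (CD4+ Foxp3-). The control mice were CD27+/-. The CD70Tg mice were CD11c-Cd70tg;CD27+/-, in which the CD11c promoter, active in dendritic cells, drives CD70, the ligand of CD27, so that all mice had 1 functional *Cd27* allele and the reporter and differed in the transgene. Each of the 4 groups had 2 libraries, made from equal numbers of sorted cells, and the labels used here give neither an age per sample nor whether a library came from 1 animal or several. The p-values below therefore measure the spread between libraries, which may be partly technical.

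Adhesion GPCRs are large surface receptors with a long extracellular part that is cleaved from the seven-transmembrane part during synthesis and stays bound to it. Ligands on other cells or in the matrix, or mechanical pull, can free a tethered agonist that turns on G proteins, often of the G12/13 class that leads to RhoA. *Adgrg1* encodes GPR56, known for its role in cortical development and, in lymphocytes, as a surface protein of NK cells and cytotoxic T cells. *Adgrg3* encodes GPR97, best known from granulocytes. *Adgre5* encodes CD97, which is broadly present on leukocytes and binds CD55.

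*Adgrg1* and *Adgrg3* lie side by side on the + strand of chromosome 8 (mm10, which is GRCm38, GENCODE M21). *Adgrg1* (ENSMUSG00000031785) spans chr8:94974751-95014217 and *Adgrg3* (ENSMUSG00000060470) spans chr8:95017692-95045250. The gap between *Adgrg1* and *Adgrg3* is 3.5 kb. *Adgre5* (ENSMUSG00000002885) lies 11.2 Mb from *Adgrg1* at chr8:83723251-83741326 on the - strand. Of the exon length of *Adgre5*, 23.8% is shared with *Ddx39* on the other strand. Whether counting used strand is not given in the sources used here, so that reads from these overlapping exons could be counted for neither gene or be drawn from either one.

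The bases upstream of 2 annotated starts of *Adgrg1* are shown because its mRNA is the one that differed most between groups. Each is the longest stretch outside annotated exons within the 250 bases before a RefSeq start (GRCm38.p6, + strand, 5′ to 3′), and capitals mark matches to the motifs searched. The stretches are chr8:94976859-94976992, before the start at 94977109, and chr8:94984149-94984370, before the start at 94984399.
Adgrg1 start 1: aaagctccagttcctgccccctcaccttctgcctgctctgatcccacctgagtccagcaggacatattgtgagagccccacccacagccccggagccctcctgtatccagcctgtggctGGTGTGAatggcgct
Adgrg1 start 2: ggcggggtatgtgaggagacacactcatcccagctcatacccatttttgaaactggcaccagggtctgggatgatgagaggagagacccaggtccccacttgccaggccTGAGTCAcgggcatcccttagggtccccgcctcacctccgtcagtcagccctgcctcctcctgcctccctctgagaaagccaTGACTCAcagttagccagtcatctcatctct
Both strands of the 250 bases before each start were searched for 5 motifs, which were chosen after these sequences had been seen. The T-box half-site GGTGTGA was found at *Adgrg1* start 1, 131 to 125 bases before the start, and in 3.3% of all 32851 promoters of that length. The AP-1 motif TGANTCA was found at *Adgrg1* start 2 as TGAGTCA and TGACTCA, 141 to 135 and 59 to 53 bases before the start, and in 6.7% of promoters. The RUNX motif TGTGGT, the ETS motif GGAAGT and the NF-kB motif, held by 14%, 19.7% and 1.2% of promoters, were found at neither start of *Adgrg1*. The *Adgrg3* window held none of the 5, and *Adgre5* had no entry. These are matches of letters, and no factor's binding was measured.

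The values are reads scaled to 20 M per library and rounded up, so that the number of reads behind them differed. The libraries held 6.9 to 33.17 M reads on genes in Tconvs and 1.9 to 4.52 M in Tregs, and the value worth 3 reads, used as the floor below which a gene is not told from 0, was 1.8 to 8.6 in Tconvs and 13.1 to 31.4 in Tregs. The Treg markers *Foxp3*, *Il2ra*, *Ikzf2* and *Ctla4* summed to 54604 to 63193 in the Treg libraries and 2695 to 3399 in the Tconv libraries, and all 5 T cell markers were over the floor in all libraries. Replicates correlated at r of 0.979 to 0.99 over the 12816 genes tested, which are not independent.

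*Adgrg1* was nearly silent in control Tconvs and abundant in CD70Tg Tconvs. Its value was 26 and 11 in the control Tconv libraries and 1067 and 1179 in the CD70Tg Tconv libraries. These rest on 25 and 5 reads in the controls and on 370 and 1963 reads in CD70Tg. The ratio of means was 60.7, and the log2 fold change was 5.66 ± 0.34 (SE, 2 libraries against 2), on the scale of log2(value + 5), as are all log2 fold changes below. A pool of sorted cells does not tell more expressing cells from more RNA per cell.

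In Tregs, the value of *Adgrg1* was 59 and 84 in control and 95 and 98 in CD70Tg libraries. The 4 values did not overlap between groups, with CD70Tg higher, as in 22.5% of all genes tested, but the reads behind them were 12, 19, 9 and 18, and the 95% Poisson intervals of 30.1 to 102 and 50.1 to 130 in the controls overlapped those of 43.1 to 179 and 58 to 155 in CD70Tg. These intervals cover counting error only. The log2 fold change was 0.43 ± 0.34 (SE), and the response in Tregs minus that in Tconvs was -5.23 ± 0.48 (SE). The order of *Adgrg1* levels was thus CD70Tg Tconvs, CD70Tg Tregs, control Tregs and control Tconvs, and counting intervals of neighbours overlapped between the 2 Treg groups and, in the first library of each (30.1 to 102 and 16.6 to 37.8), between control Tregs and control Tconvs.

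**Figure D1:**
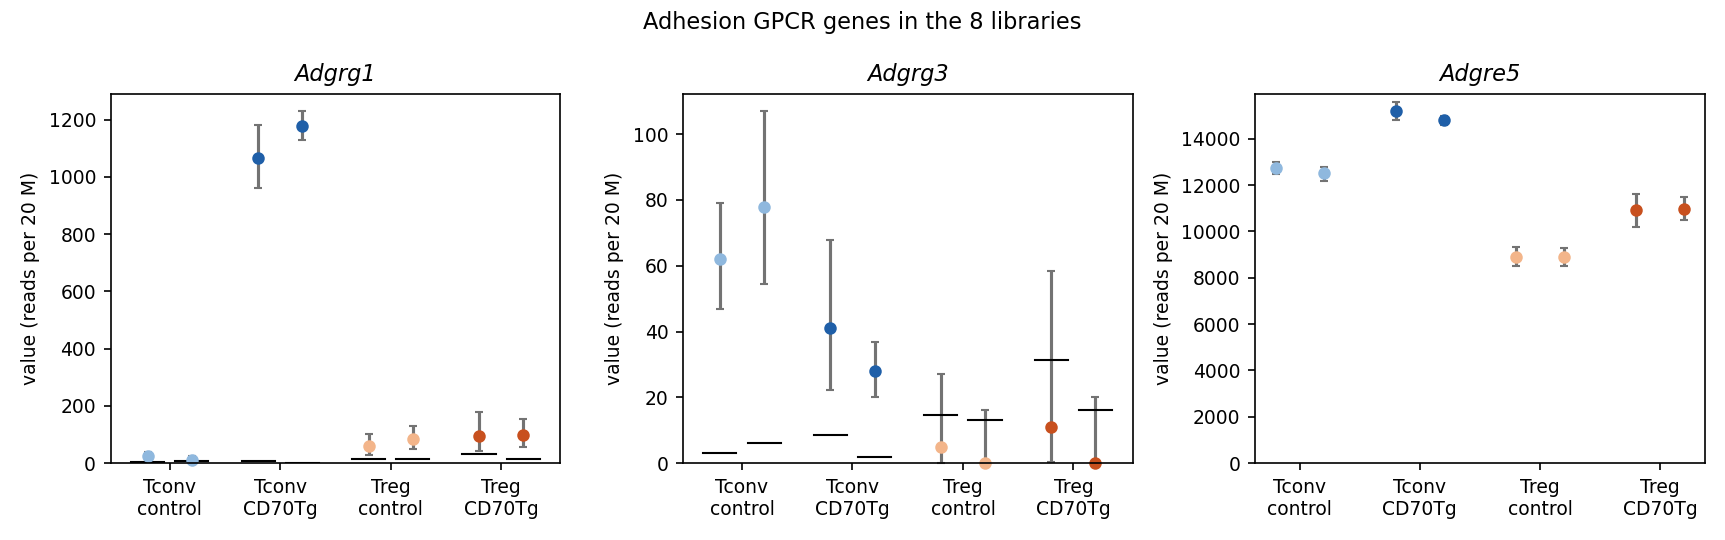
Values (reads per 20 M, linear axes from 0) of the 3 genes in each of the 8 libraries, with points for libraries, bars for 95% Poisson intervals of counting, and short black lines for the value worth 3 reads (not drawn for Adgre5). Adgrg1 stands at 1067 and 1179 in CD70Tg Tconvs and at 98 or less elsewhere, Adgrg3 is over the floor in Tconvs alone, and Adgre5 is higher in Tconvs than in Tregs.

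Of all genes tested, 4.07% were called higher and 0.577% lower in CD70Tg Tconvs, 2.53% higher and 1.08% lower in CD70Tg Tregs, and 0.148% and 0.733% had a response that was higher or lower in Tregs than in Tconvs. A call required an adjusted p-value under 0.05 by limma and an absolute log2 fold change over 1. *Adgrg1* passed these thresholds in Tconvs and for the difference between subsets, which nothing is read from, since both contrasts chose it.

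*Adgrg3*, next to *Adgrg1*, took lower values in CD70Tg Tconvs. It was at 62 and 78 in control and at 41 and 28 in CD70Tg Tconvs, a ratio of means of 2.03-fold lower with a log2 fold change of -0.94 ± 0.62 (SE). They rest on 60 and 37 reads in the controls and on 14 and 46 reads in CD70Tg. The library values did not overlap between the groups, with CD70Tg lower, as in 21.4% of all genes tested. The 95% Poisson intervals of 46.9 to 79.1 and 54.5 to 107 in the controls overlapped that of 22.1 to 67.7 in the first CD70Tg library but not that of 20.2 to 36.8 in the other.

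In Tregs, *Adgrg3* was at 5 and 0 in control and 11 and 0 in CD70Tg libraries. All of these are at or under the floor of their library, with at most 1 read each, so that no change with CD70Tg was detectable at this depth and no fold is given. The gene entered the fit through the control Tconv libraries alone, where it was at 60 or above.

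*Adgre5* was the abundant member. It was at 12750 and 12503 in control and 15190 and 14803 in CD70Tg Tconvs, and at 8904 and 8902 in control and 10909 and 10989 in CD70Tg Tregs. CD70Tg values were 1.19-fold those of controls in Tconvs and 1.23-fold in Tregs, with log2 fold changes of 0.25 ± 0.11 and 0.30 ± 0.11 (SE). The library values of no pair of groups overlapped. Values without overlap between CD70Tg and control, with CD70Tg higher, were found in 23.7% of all genes tested in Tconvs and 22.5% in Tregs. The response in Tregs minus that in Tconvs was 0.05 ± 0.15 (SE). The overlapping *Ddx39*, an RNA helicase gene, was at 5920 and 5738 in control and 6290 and 6643 in CD70Tg Tconvs, and at 4140 and 4234 in control and 4849 and 4731 in CD70Tg Tregs, which is the same order of groups. The part of shared reads in this was not tested.

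Levels of different genes are compared per kb of exon. In control Tconvs, *Adgre5* was at 3360 per kb, *Adgrg3* at 10.1 and *Adgrg1* at 3.41, with no overlap between libraries of neighbours in this order. In CD70Tg Tconvs, *Adgre5* was at 3990 per kb, and *Adgrg1* came next at 207, before *Adgrg3* at 5.0. In Tregs, *Adgre5* at 2370 per kb in control and 2910 in CD70Tg mice was again followed by *Adgrg1*, at 13.2 and 17.8, with *Adgrg3* under the floor.

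The comparison of Tregs with Tconvs in control mice asks how the genes differ between the subsets without the transgene. It shares its control libraries with the contrasts that chose the members. *Adgrg1* was 3.86-fold higher in control Tregs than in control Tconvs, with a log2 fold change of 1.76 ± 0.34 (SE, and 1.28 to 2.24 when libraries were left out), given with no test because its low values in control Tconvs are among those it was chosen for. *Adgre5* was 1.42-fold lower in control Tregs, with a log2 fold change of -0.50 ± 0.11 (SE) and an adjusted p-value of 0.0014 (limma), under the fold that counts as a call. In this contrast, 52.9% of all genes tested had an unadjusted p-value under 0.05 (limma). *Adgrg3* was at least 5.06-fold lower in control Tregs than in control Tconvs, measured against the mean floor of the Treg libraries. Since it passed the filter only through the group where it is high, this is given as a description. Among all genes, 14.7% were called higher and 4.43% lower in control Tregs.

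In the CD70Tg mice the order of subsets for *Adgrg1* was the opposite, with the Treg mean 11.6-fold lower than the Tconv mean. *Adgre5* remained 1.37-fold lower in Tregs. *Adgrg3* was at least 1.45-fold lower in CD70Tg Tregs, a bound which the floors of 31.4 and 16.3 keep low.

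Of the 30 adhesion GPCR genes, 11 reached the minimum for testing, 60 in at least 2 libraries. The other 19 never exceeded 33, and 4 of these were at 0 in all libraries. Beside the members, 7 genes were tested. *Adgrd1*, which encodes GPR133, rose in both subsets. It was at 44 and 36 in control and 119 and 113 in CD70Tg Tconvs (log2 fold change 1.43 ± 0.33 SE, adjusted p = 0.0093, limma), and at 54 and 53 in control and 147 and 126 in CD70Tg Tregs (1.27 ± 0.33 SE, adjusted p = 0.026, limma). When libraries were left out, the fold change was 1.3 to 1.56 in Tconvs and 1.16 to 1.38 in Tregs. The call in Tconvs was lost without the second control library, without the second CD70Tg library and without the filter on low values (highest adjusted p = 0.11 over the alternatives, limma), and that in Tregs without any 1 of the 4 Treg libraries (highest adjusted p = 0.15, limma).

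The remaining calls with CD70Tg were in Tregs. *Adgrf5*, known from endothelium and lung epithelium, was at 34 and 31 in control and 157 and 60 in CD70Tg Tregs (1.45 ± 0.42 SE, adjusted p = 0.045, limma), and the call rested on the high library of 1.9 M reads (0.79 without it, adjusted p = 0.38 by limma). *Adgre4*, a receptor gene of macrophages, was at 102 and 162 in control and 42 and 28 in CD70Tg Tregs (-1.76 ± 0.47 SE, adjusted p = 0.03, limma). The call for *Adgre4* was likewise lost without any 1 of the 4 Treg libraries, with the fold change between -2.08 and -1.44. *Adgrl1*, a latrophilin gene, was lower in CD70Tg Tregs by less than the fold for a call (-0.62 ± 0.14 SE, adjusted p = 0.013, limma, and up to 0.13 when libraries were left out). *Celsr1*, of the planar cell polarity pathway, was the most abundant gene of the family after *Adgre5* by value, at 2070 to 3500, and its fold change of 0.52 ± 0.13 (SE) in Tconvs (adjusted p = 0.02, limma) was also under the fold for a call, and was 0.30 without the second CD70Tg library (adjusted p = 0.23, limma). The median log2 fold change was 0.13 over the 11 tested genes in Tconvs and -0.23 over the 9 that were over the floor in Tregs, beside 0.01 and -0.05 over all genes.

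Without the transgene, *Adgre1*, which encodes F4/80 of macrophages, was higher in Tregs (258 and 272) than in Tconvs (41 and 40), with a log2 fold change of 2.57 ± 0.30 (SE, adjusted p = 3.9e-06, limma). *Adgre4* was also higher in Tregs, with 2.45 ± 0.47 (SE, adjusted p = 0.00049, limma). The 7 macrophage or monocyte markers, of which *Adgre1* is one, summed to 4182 and 4002 in control Tregs and 1782 and 1860 in control Tconvs, and 5 of them were called higher in Tregs, beside 14.7% of all genes. Their sum was 3744 and 3668 in CD70Tg Tregs, where the markers moved in different directions. *Csf1r*, the receptor gene for macrophage growth factor, was at 1500 and 1205 in control and 930 and 762 in CD70Tg Tregs, *C1qa* at 675 and 587 and at 335 and 365, *C1qb* at 738 and 657 and at 460 and 533, and *Adgre1* at 258 and 272 and at 199 and 202, all lower with CD70Tg like *Adgre4*. *Lyz2* was at 641 and 872 in control and 1181 and 1077 in CD70Tg Tregs, *Itgam* at 146 and 198 and at 377 and 381, and *Cd68* at 224 and 211 and at 262 and 348. Of the 7, *Itgam* was called higher and 0 were called lower with CD70Tg in Tregs. The methods name macrophages among the cells removed by magnetic depletion before the sort. The part of macrophage RNA in the values of *Adgre1* and *Adgre4* was not tested.

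**Figure D2:**
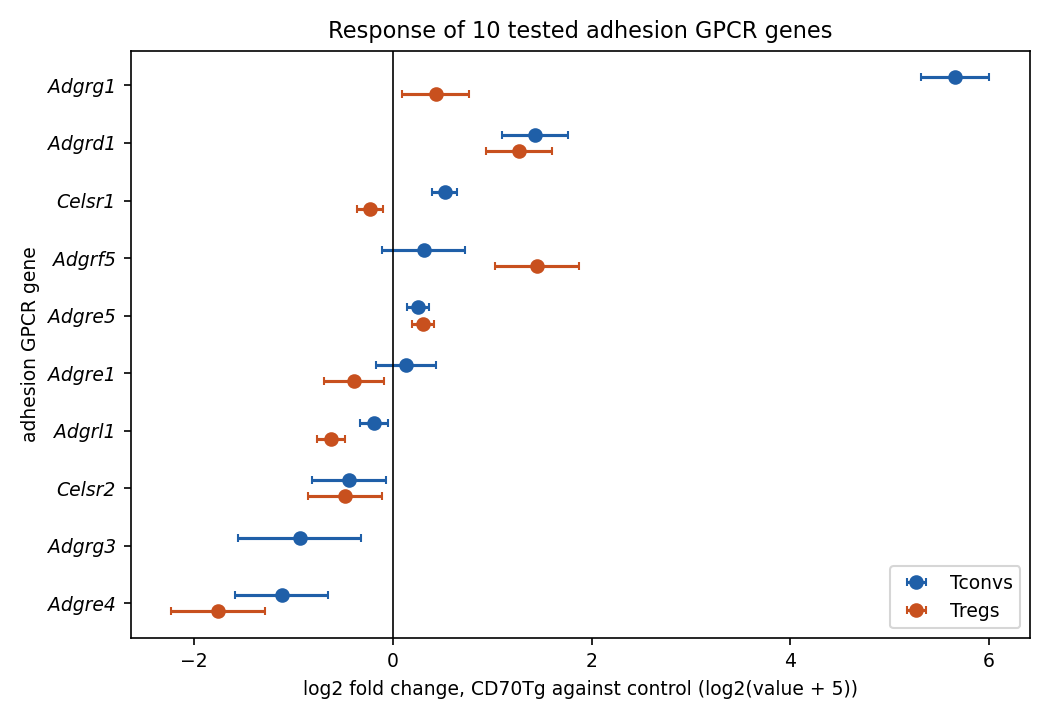
Log2 fold changes (CD70Tg against control, on log2(value + 5)) of 10 of the 11 tested adhesion GPCR genes in Tconvs (blue) and Tregs (orange), with standard errors as bars. Adgrg1 lies at 5.66 in Tconvs and 0.43 in Tregs, Adgrd1 lies above 1 in both subsets, and Adgrg3 has no point in Tregs, where it was under the floor.

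Genes around *Adgrg1* and *Adgrg3* were examined for a shared change. Those with a start within 200 kb that were tested and are given here are *Ciapin1*, *Coq9*, *Polr2c*, *Dok4*, *Ccdc102a* and *Gm45758*. None of these 6 was called in Tconvs or in Tregs (limma), which says little of so few genes, since 4.07% of all genes were called higher and 0.577% lower in Tconvs, and 2.53% and 1.08% in Tregs. Their log2 fold changes ranged from -0.51 to 0.33 in Tconvs, and from -0.03 to 0.59 in Tregs. *Ccdc102a*, a coiled-coil protein gene, had the value of -0.51 ± 0.49 (SE) in Tconvs. *Gm45758*, whose start lies 115.9 kb after that of *Adgrg1*, had that of 0.33 ± 0.42 (SE), with an adjusted p-value of 0.77 (limma).

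**Figure D3:**
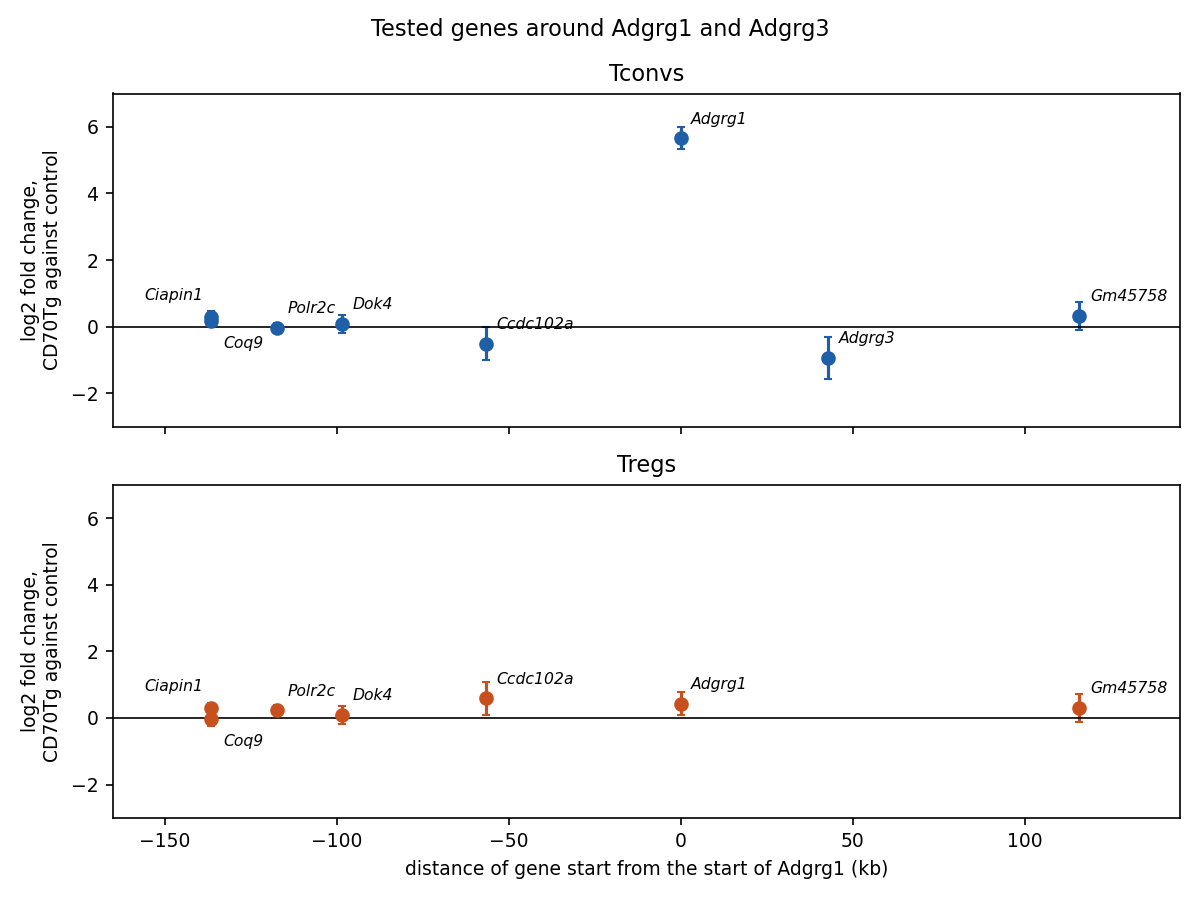
Log2 fold changes (CD70Tg against control) of tested genes by the distance of their start from that of Adgrg1 in kb, in Tconvs (upper panel) and Tregs (lower panel), with standard errors as bars. Adgrg1 at 5.66 stands alone in Tconvs, with Adgrg3 at -0.94, and the 6 other genes drawn lie between -0.51 and 0.33.

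Ligands and membrane partners of these receptors form a list of 11 genes, of which 10 were tested. It holds the GPR56 ligands *Col3a1* and *Tgm2*, its tetraspanin partners *Cd81* and *Cd9*, and the CD97 partners *Cd55*, *Thy1* and integrin subunits. None was called with CD70Tg in Tconvs or in Tregs by limma, where 5 and 3 of them had an unadjusted p-value under 0.05, beside 19.1% and 21.6% of all genes. Leaving out 1 library gave at most 1 call in each subset, and limma-voom gave 1 in Tconvs. *Itgb1*, the integrin beta1 subunit, had the lowest adjusted p-value in Tconvs, at 6817 and 5671 in control and 9615 and 13551 in CD70Tg Tconvs (log2 fold change 0.88 ± 0.15 SE, adjusted p = 0.00074, limma, and 0.63 to 1.12 when libraries were left out). The adjusted p-value of *Itgb1* did not stay under 0.05 under every alternative. The integrin beta3 gene *Itgb3* was at 5281 and 5259 in control and 3760 and 3321 in CD70Tg Tconvs (-0.58 ± 0.12 SE, adjusted p = 0.0036, limma). *Col3a1* was at 88 and 167 in control and 189 and 381 in CD70Tg Tregs, past the fold for a call but not the adjusted p-value (1.11, adjusted p = 0.095, limma). *Cd55* was at 933 and 1053 in control and 1023 and 792 in CD70Tg Tconvs, and these overlapped.

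In control mice, 3 genes of the same list were called higher and 3 lower in Tregs, where 14.7% and 4.43% of all genes were. *Cd81* was at 1961 and 1966 in control Tregs and 811 and 601 in control Tconvs (1.49 ± 0.15 SE, adjusted p = 6.3e-07, limma), and *Tgm2* (1.72 ± 0.28 SE) and *Itgav* (1.60 ± 0.14 SE) were higher as well. *Cd9* was at 913 and 837 in Tregs and 2192 and 2252 in Tconvs (-1.34 ± 0.13 SE, adjusted p = 8.1e-07, limma). *Itgb3* stood at -2.08 ± 0.12 (SE), and *Thy1*, at 9031 and 8652 in Tregs and 16256 and 19342 in Tconvs, was just past the fold for a call (adjusted p = 5.4e-06, limma), which it missed without the second control Tconv library (-0.88). The 2 tetraspanins that bind GPR56 thus differed in opposite directions between the control subsets.

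Downstream, 18 of 19 genes for G proteins, RhoA exchange factors, ROCK kinases and arrestins were tested. Of these, 1 was called higher and 0 lower with CD70Tg in Tconvs, where 4.07% and 0.577% of all genes were, and 0 in Tregs (limma), where 2.53% and 1.08% were, so that these counts do not set the list apart. An unadjusted p-value under 0.05 was reached by 3 and 5 of the 18, and upper-quartile scaling gave 1 call in Tregs. The gene called in Tconvs was *Gna15*, encoding the G alpha15 subunit of haematopoietic cells. It was at 171 and 199 in control and 557 and 1380 in CD70Tg libraries (2.22 ± 0.28 SE, adjusted p = 5e-05, limma, and 1.57 to 2.87 when libraries were left out). In Tregs it was at 544 and 622 in control and 1139 and 1142 in CD70Tg libraries (0.97 ± 0.28 SE, adjusted p = 0.047, limma, and up to 0.34 over the alternatives), just under the fold for a call. *Arhgef12*, a RhoA exchange factor downstream of G12/13, was at 221 and 247 in control and 323 and 373 in CD70Tg Tconvs, under the fold for a call (0.56 ± 0.16 SE, adjusted p = 0.031, limma, and 0.46 to 0.66 when libraries were left out). That p-value did not stay under 0.05 under every alternative. *Gna13* was at 4198 and 3407 in control and 3645 and 3597 in CD70Tg Tconvs, *Gna12* at 887 and 798 in control and 845 and 922 in CD70Tg Tconvs, and *Rhoa* at 11496 and 11986 in control and 11295 and 10167 in CD70Tg Tconvs. Between control subsets, 4 of the 18 were higher in Tregs, namely *Gna15*, *Gnaq*, *Arhgef12* and *Rock2*, and 0 lower, beside 14.7% and 4.43% of all genes. For *Arhgef12*, control Tregs stood at 1645 and 1822 and control Tconvs at 221 and 247 (2.86 ± 0.16 SE, adjusted p = 7.3e-10, limma).

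Since GPR56 is known as a surface protein of cytotoxic lymphocytes, a list of 15 cytotoxic effector genes was set beside *Adgrg1*. Of these, 12 rose in CD70Tg Tconvs and 11 in CD70Tg Tregs, with 0 lower in either, and the medians were 3.33 and 1.81, beside 4.07% and 2.53% of all genes called higher. The Treg median includes *S1pr5* and *Zfp683*, which were near or under the floor in Tregs. The count in Tregs was 7 without the first control Treg library and 6 without the filter on low values or with limma-voom. The list was made with results of these libraries known, and its direction is not independent evidence. *Gzmb*, encoding granzyme B, was at 72 and 51 in control and 1323 and 2941 in CD70Tg Tconvs, and at 850 and 666 in control and 2174 and 3246 in CD70Tg Tregs. *Nkg7*, a cytotoxic granule gene, rose 3.70 ± 0.16 (SE, adjusted p = 7.9e-10, limma) in Tconvs and 3.20 ± 0.16 (SE, adjusted p = 6.1e-09, limma) in Tregs. *Eomes*, the T-box factor of effector and memory cells, rose 3.33 ± 0.19 and 4.09 ± 0.19 (SE). *Prf1*, encoding perforin, rose 1.33 ± 0.15 in Tconvs and 2.16 ± 0.15 in Tregs (SE). *Gzma*, for granzyme A, was at 46 and 65 in control and 257 and 661 in CD70Tg Tconvs (2.81 ± 0.45 SE, and 2.13 to 3.48 when libraries were left out), and at 10 and 27 in control and 115 and 87 in CD70Tg Tregs (2.26 ± 0.45 SE, and 1.72 to 2.81). *Gzmk*, for granzyme K, was at 506 and 99 in control and 5259 and 6797 in CD70Tg Tconvs (4.70 ± 0.55 SE, and 3.55 to 5.85), and at 10 and 49 in control and 878 and 778 in CD70Tg Tregs (4.87 ± 0.55 SE, and 3.94 to 5.79). The control libraries of *Gzmk* thus differed widely from each other, and the first control Treg library was under its floor for both genes. The chemokine gene *Ccl5* rose 4.28 ± 0.25 and 3.31 ± 0.25 (SE) in Tconvs and Tregs, and *Cx3cr1*, for the fractalkine receptor, rose 4.22 ± 0.32 and 2.92 ± 0.32 (SE). *Klrg1*, an inhibitory receptor gene of effector cells, rose 3.58 ± 0.30 and 1.49 ± 0.30 (SE). *S1pr5* was called in Tconvs (3.26 ± 0.66 SE, and 2.46 to 4.05 when libraries were left out), where it was at 8 and 15 in control and 84 and 262 in CD70Tg libraries, and *Tbx21*, for T-bet, in Tregs (1.28 ± 0.31 SE).

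Not all of these calls held under every alternative. In Tconvs those of *Gzma* and *S1pr5* did not (highest adjusted p = 0.062 and 0.16, limma). In Tregs those of *Prf1*, *Nkg7*, *Ccl5* and *Eomes* held. Those of *Gzma*, *Gzmb*, *Gzmk*, *Ifng*, *Tbx21*, *Cx3cr1* and *Klrg1* did not, with a highest adjusted p-value of 0.42, 0.066, 0.085, 0.54, 0.43, 0.05 and 0.11 in that order (limma or limma-voom). Several genes had lower fitted log2 fold changes in Tregs than in Tconvs, such as *Prdm1* (0.67 and 2.04), for which the difference passed the test (adjusted p = 0.0044, limma), and *Ifng* (1.67 and 3.75) and *Zeb2* (0.12 and 1.55), for which it did not. When libraries were left out, *Ifng* was at 1.26 to 2.07 in Tregs and 2.97 to 4.52 in Tconvs. The response in Tregs minus that in Tconvs had a median of -0.97 over the 15 genes, with *S1pr5* and *Zfp683* included. Of the 15, 3 (*Gzmb*, *Prdm1* and *Klrg1*) were called lower and 0 higher for this difference, beside 0.733% of all genes called lower. *Eomes* and *Prf1* had differences of 0.76 and 0.83, opposite to the median.

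**Figure D4:**
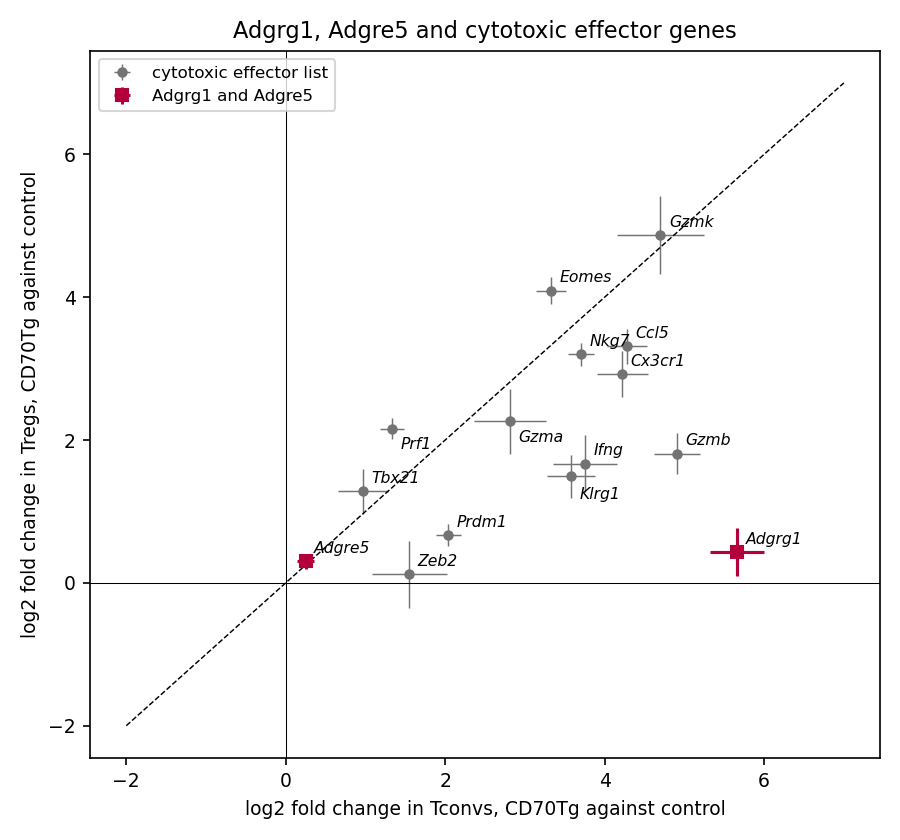
Log2 fold changes in Tregs against those in Tconvs (CD70Tg against control, on log2(value + 5)) for 13 cytotoxic effector genes (grey circles) and for Adgrg1 and Adgre5 (red squares), with standard errors as bars and equal responses along the dashed line. S1pr5 and Zfp683 are not drawn because they were near or under the floor in Tregs. Adgrg1 lies far to the right and low, at 5.66 and 0.43, Eomes and Prf1 lie above the line, and Gzmb, Klrg1, Ifng, Prdm1 and Zeb2 lie below it.

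Markers of other cells that carry these receptors were summed in each library. The 7 NK cell markers summed to 530 and 624 in control and 142 and 207 in CD70Tg Tconvs, a difference made up mostly by *Klrb1c*. *Ncr1*, the defining NK cell receptor gene, was at 0 in both control Tconv libraries and at 0 and 2 in the CD70Tg ones. *Klrb1c* was called lower in CD70Tg mice in both subsets, beside 0.577% of all genes in Tconvs and 1.08% in Tregs. It was at 403 and 423 in control and 75 and 68 in CD70Tg Tconvs. In Tregs it was at 64 and 36 in control and at 0 and 11 in CD70Tg libraries, where it was under the floor. The methods describe magnetic depletion of NK cells (anti-CD49b) and CD8+ cells (anti-CD8beta), among others, before CD3+ CD4+ cells were sorted. The 2 CD8 T cell markers summed to 720 and 681 in control and 1563 and 1590 in CD70Tg Tconvs, and of these *Cd8a* alone was called higher. Within this sum, *Cd8a* was at 17 and 28 in control and 508 and 608 in CD70Tg libraries, and *Cd8b1* at 703 and 653 in control and 1055 and 982 in CD70Tg libraries. In Tregs the sum was 317 and 417 in control and 660 and 631 in CD70Tg libraries, and *Cd8a*, at 25 and 71 in control and 262 and 223 in CD70Tg libraries, was called higher there too, where *Adgrg1* was at 59 and 84 and at 95 and 98. The part of CD8 T cells or NK cells in the *Adgrg1* values was not tested. The 6 neutrophil markers, listed beside *Adgrg3* as the granulocyte receptor gene, summed to 6 to 24 in the Tconv libraries, where *Adgrg3* was at 28 to 78, and to 10 and 10 in control and 201 and 176 in CD70Tg Tregs, where *Adgrg3* was under the floor. Dendritic cell markers summed to 66 and 133 in control and 177 and 340 in CD70Tg Tconvs and to 94 and 156 in control and 389 and 356 in CD70Tg Tregs, and erythroid markers to 541 and 1486 in control and 3919 and 2329 in CD70Tg Tregs, and their part in the values was not tested either.

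Genes with the profile most like each member were taken by Pearson's r of log2(value + 5) over the 8 libraries. The 4 groups differ within these libraries, so that r mainly describes the pattern over groups. For *Adgrg1*, the 10 most alike were *Adrb1*, *Golim4*, *Cdca2*, *Plek*, *Chsy1*, *F2r*, *Tmem163*, *Gem*, *Gas7* and *Bend4*, with r from 0.973 to 0.927. They include 2 other GPCR genes, *Adrb1* (the beta1-adrenergic receptor) and *F2r* (the thrombin receptor PAR1). *Adrb1* was at 4 and 5 in control and 90 and 70 in CD70Tg Tconvs, and at 10 to 22 in Tregs, of which the second control Tconv library and the first library of each Treg group were under their floor. *F2r* was at 1099 and 902 in control and 1885 and 2448 in CD70Tg Tconvs, and at 1025 to 1425 in Tregs. *Gas7* had the largest fold of the 10 in Tconvs, from 15 and 5 in control to 459 and 717 in CD70Tg libraries, and was at 30 and 27 in control and 189 and 142 in CD70Tg Tregs.

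**Figure D5:**
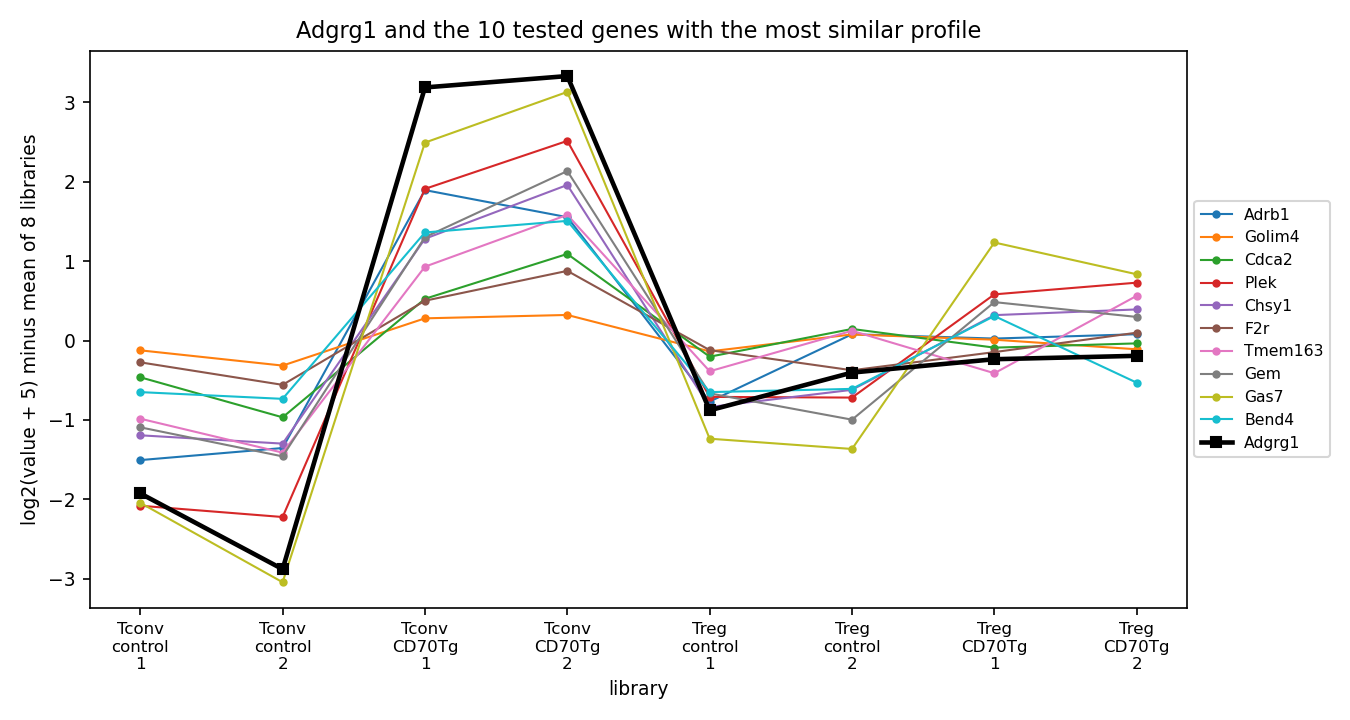
Log2(value + 5) in each of the 8 libraries minus the mean of the gene over the libraries, for Adgrg1 (black squares) and the 10 tested genes with the highest Pearson r to it (0.973 to 0.927). All 11 profiles peak in the CD70Tg Tconvs, and that of Adgrg1 spans the widest range together with that of Gas7.

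For *Adgrg3*, the 5 most alike genes were *Map2k6*, *Hist2h2be*, *Gm15743*, *2810001G20Rik* and *4930451E10Rik*, with r of 0.985 to 0.973. Of the 8 values of *Adgrg3* behind r, the 4 from Tregs are at or under the floor and not told from 0. *Map2k6*, a kinase gene of the p38 pathway, was at 321 and 344 in control and 289 and 302 in CD70Tg Tconvs and at 164 to 230 in Tregs. The 5 genes share the pattern of highest values in control Tconvs and low values in Tregs. For *Adgre5*, the 5 were *Id2*, *Ddx39*, *Fam49a*, *Cyp2s1* and *Gpr171*, with r of 0.986 to 0.977. *Id2*, an inhibitor of E-protein transcription factors, was at 2292 and 2714 in control and 4126 and 5606 in CD70Tg Tconvs, and at 578 and 627 in control and 1359 and 1262 in CD70Tg Tregs, and thus changed more than *Adgre5* while keeping its order of groups.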

How the data were processed

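The authors trimmed paired-end reads of Ovation SoLo libraries with Trimmomatic 0.36, mapped them to mm10 with STAR 2.5.3 and counted them per gene with HTSeq 0.9.1. The deposited values are score values, that is, reads scaled by the authors to 20 M per library and rounded up, with totals of 19963628 to 20164600. The deposited columns name the controls KO, the labels WT, and the methods CD27+/-, and KO columns were taken as the controls. The value of 1 read was recovered from the low values, all of which (up to 100) lay on 1 step in 7 libraries. In the deepest library the step is under 1 and was estimated from the frequency of values. Of 52636 rows, 4131 with clone-derived names were left out.

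The 12816 genes that reached 60 in 2 or more libraries were tested with limma 3.58.1 in R 4.3.3 (trend) on log2(value + 5), with 1 coefficient per group and Benjamini-Hochberg adjustment over all genes tested. The procedure was tested on simulated data. A mean is that of 2 libraries. A fold against a group at or under the floor of 3 reads is a bound. Members and lists were chosen with earlier results of these data known. Of each list, called genes were named, otherwise the 3 with the highest mean, and for each member the 5 most alike genes (10 for *Adgrg1*) and the genes within 200 kb. *Adgrl1*, *Celsr1*, *Itgb1*, *Cd55*, *Gna12* and others given with values outside this rule were picked after their values were seen. Alternatives were other pseudocounts, filters and scalings, 1 subset alone, limma-voom on reads and leaving out each library. The authors' own comparisons were not used. The remaining gene of the selection and 1 gene near *Adgrg1* are not reported here.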

Additional observations from a re-analysis of the deposited data

Results flagged for a closer look

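*Adgrg1* set aside, since it was chosen on this contrast, there were 4 genes of the fixed lists in which the response to CD70Tg differed between Tregs and Tconvs by the test of the difference itself (limma, adjusted over 12816 genes). The response in Tregs minus that in Tconvs, on the log2 scale, was -0.92 for *Itgb1* (adjusted p = 0.041), -3.10 for *Gzmb* (adjusted p = 0.00087), -1.38 for *Prdm1*, encoding the repressor Blimp-1 (adjusted p = 0.0044), and -2.09 for *Klrg1*, a receptor gene of effector lymphocytes (adjusted p = 0.021). Over all genes tested, 94 were called lower and 19 higher in this contrast, and the median was -0.08. None of the 4 held under every alternative, with a highest adjusted p-value of 0.37, 0.23, 0.23 and 0.37 in the same order (limma, without the filter on low values). *Prdm1* was at 239 and 245 in control and 911 and 1129 in CD70Tg Tconvs, and at 1582 and 2080 in control and 2853 and 2909 in CD70Tg Tregs. *Klrg1* was at 38 and 76 in control and 479 and 1027 in CD70Tg Tconvs, and at 1218 and 1585 in control and 3783 and 4073 in CD70Tg Tregs. Both were thus higher in Tregs than in Tconvs of control mice, as was *Gzmb*.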

How the results depend on the processing

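The test of *Adgre5* between control subsets stayed past an adjusted p-value of 0.05 in the direction reported under the alternatives that hold both subsets (limma, highest 0.02). With a pseudocount of 20, the log2 fold change of *Adgrg1* was 4.92 in Tconvs and -4.56 for the difference. Leaving out each library gave 5.18 to 6.14 and -5.71 to -4.76, the ends being those without 1 of the control Tconv libraries, which hold 25 and 5 reads. *Adgre5* was at 0.20, 0.32 and 0.12 (Tconvs, Tregs, difference) with median-of-ratios factors and at 0.21, 0.33 and 0.12 with upper-quartile scaling, and at 0.23 to 0.27 in Tconvs and 0.03 to 0.07 for the difference when leaving out libraries. Without a filter on low values, 283 genes were called in Tconvs, 202 in Tregs and 0 for the difference, in place of 596, 462 and 113, where 2249 had an unadjusted p-value under 0.05 for the difference (26467 genes tested, limma). Limma-voom on reads called 859 in Tconvs, 170 in Tregs and 53 for the difference. Leaving out 1 library gave 315 to 793 in Tconvs, 226 to 479 in Tregs and 58 to 209 for the difference. *Ccl5* in control Tregs against Tconvs turned from 0.06 to -0.53 without the second control Treg library (range 0.65 to -0.53 when leaving out libraries). With a floor of 1 read, *Adgrg3* was at or under it in all 4 Treg libraries. The calls of *Adgrd1*, *Adgre4* and *Adgrf5* in Tregs were lost without the filter and with limma-voom, and those of *Adgre4* and *Adgrf5* also with a pseudocount of 1, and that of *Adgrf5* with other scalings or the subset alone (highest adjusted p over the alternatives 0.15, 0.22 and 0.38, limma). No paired analysis was possible because the columns of the table carry no replicate number of the labels. Treg depth limits statements on *Adgrg3*.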
